A study of Mus musculus with 16 samples.

Results

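The forkhead (Fox) transcription factor genes were followed in germs of the mouse first molar. A symbol counted as a member when it consisted of Fox, 1 lower-case letter and a number, which took 43 of the 23337 genes in the count tables. Of these, 32 reached 10 counts in at least 1 library and 31 passed the filter on low counts described under the processing, as did 16287 genes in all. Poly(A) RNA of 16 libraries was measured, 8 labelled upper and 8 labelled lower first molar, with 1 library of each label at every 0.5-day step of embryonic development (embryonic days, ED) from ED14.5 to ED18.0. All samples were labelled wild-type males of CD1, an outbred strain, with no treatment or transgene. Each library pooled the left and right germs of 1 individual, and both labels of a stage were given the same individual, numbered 1 to 8 in the order of stage. A group value below therefore spans 8 stages with 1 animal at each, and its SD holds the stage trend as well as the spread between animals.

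Forkhead proteins bind DNA through a winged-helix domain and are grouped into lettered subfamilies by the sequence of that domain. In the developing tooth, members of the family act on both sides of the exchange between epithelium and neural crest-derived mesenchyme. Foxi3 is an epithelial target of ectodysplasin and activin signals and is linked to hairless dogs that lack teeth. Foxf, Foxc, Foxd and Foxl1 genes are mesenchymal factors, several of them downstream of Hedgehog signals. Foxo proteins are held out of the nucleus by insulin and phosphoinositide 3-kinase signalling, and Foxm1 drives entry into mitosis.

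Some marker genes ran with the labels and some did not, so every direction is given between labelled libraries. Pou3f3, a gene of the upper jaw, ran from 6.45 to 131.5 CPM (counts per 1000000 gene counts of the library) in labelled upper and from 4.45 to 86.2 CPM in labelled lower, alternating between individuals 1, 3, 5, 7 and 2, 4, 6, 8 in both labels. Of the other jaw genes, Meis2 (16.8 to 49.5 against 2.77 to 15.3 CPM) and Shox2 (18.8 to 31.3 against 10.7 to 14.7 CPM) were higher in every labelled upper library. Both fell with stage in labelled upper (-0.41 ± 0.05 and -0.19 ± 0.04 log2 per day, called), and neither slope was called in labelled lower. In labelled lower Shox2 was also higher in individuals 1, 3, 5 and 7 without overlap (12.2 to 14.7 against 10.7 to 11.8 CPM). Dlx5, a gene of the lower jaw, differed by -1.24 ± 0.22 (log2, upper minus lower, called in the test below). Its ranges overlapped (27.6 to 115.6 against 102.2 to 177.8 CPM). In both labels Dlx5 alternated at all 7 steps between neighbouring stages, in the opposite sense to Pou3f3. Dlx6 was higher in individuals 1, 3, 5 and 7 without overlap in both labels, and its tooth difference was not called. Eif2s3y, Kdm5d and Uty, genes of the Y chromosome, had 0 counts, and Xist measured 431.8 to 1928 CPM in animals labelled male, lowest in labelled lower individuals 1 and 2. Ddx3y, also of the Y chromosome, had 2 counts in 1 library. These values are at odds with the male label in all 16 libraries, and the label was kept as given. Counts with individuals 1 and 2 left out are given beside the tooth, stage and slope comparisons. Library totals were 33146758 to 44565205 gene counts. Each tooth label was run on its own flow cell and each run of 4 stages on its own lane, as the names of the deposited tables show. The label therefore cannot be told apart from the flow cell, nor from a difference in developmental stage between the teeth. Dental epithelium markers (8 of 8 measured, such as Krt14 and Krt5) summed to 3907 to 6288 CPM over labelled upper and 4155 to 5529 CPM over labelled lower libraries. Dental mesenchyme markers (10 of 10 measured, such as Msx1 and Pax9) summed to 1931 to 2565 and 1258 to 2230 CPM. The libraries were of whole germs, in which fewer cells of a type and less RNA per cell cannot be told apart.

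The promoters of 3 members are shown because their genes carry main findings below: Foxd2 had the largest called change with stage, Foxo1 was the member called for stage in both labels, and Foxi3 was the most abundant epithelial member per length. Sequences were read from RefSeq on build GRCm38, 5′ to 3′ on the gene's strand, upstream of the annotated starts. Foxd2 is chr4:114908899-114909098 on the minus strand, Foxo1 is chr3:52268136-52268335 on the plus strand and Foxi3 is chr6:70956356-70956530 on the plus strand. Capitals mark GC boxes (GGGCGG) and CCAAT boxes (CCAAT) on either strand.
Foxd2: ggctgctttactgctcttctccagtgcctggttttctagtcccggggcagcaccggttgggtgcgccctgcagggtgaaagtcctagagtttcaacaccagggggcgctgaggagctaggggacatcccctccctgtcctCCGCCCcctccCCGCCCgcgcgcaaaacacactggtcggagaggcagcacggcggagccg
Foxo1: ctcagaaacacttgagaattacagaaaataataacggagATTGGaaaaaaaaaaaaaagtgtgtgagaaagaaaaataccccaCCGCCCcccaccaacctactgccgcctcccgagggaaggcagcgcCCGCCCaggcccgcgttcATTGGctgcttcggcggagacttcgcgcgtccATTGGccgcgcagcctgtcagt
Foxi3: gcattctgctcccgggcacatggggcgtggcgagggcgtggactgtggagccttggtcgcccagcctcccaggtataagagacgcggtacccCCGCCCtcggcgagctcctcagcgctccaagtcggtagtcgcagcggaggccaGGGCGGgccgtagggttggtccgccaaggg
The stretch before Foxo1 held 2 GC boxes and 3 CCAAT boxes. Those before Foxd2 and Foxi3 held 2 GC boxes each and no CCAAT box. Over the 300-base windows of the table, from 250 bases before a start to 50 after it, 28 of the 43 members matched with 33 windows. A GC box lay in 24 of these 33, against 35.7% of all 32851 windows in the table. CCAAT lay in 15 of 33, against 37.4%, and TATAAA in 3 of 33, against 13.6%. The forkhead core GTAAACA was found in 1 of 33, at Foxa1, against 3.65%, and the Gli site GACCACCCA in 0 of 33, against 0.253%. The motifs did not overlap one another in these 3 stretches. A match describes letters in the window and no binding was measured.

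Detection was uneven across the family. The 11 members under 10 counts in every library were Foxa1, Foxb1, Foxb2, Foxd4, Foxe3, Foxh1, Foxi1, Foxi2, Foxn4, Foxr1 and Foxr2. Foxe3, a lens gene, had 0 counts in all 16 libraries, which allows up to 0.005 CPM (3 counts of the total, for counting error only). Just outside the limit, Foxd4 reached 9 counts. Inside it, Foxp3, the factor of regulatory T cells, reached 21 and Foxl2, an ovarian granulosa cell factor, 25. The gene Foxf1, listed as Foxf1a in the tables, falls outside the rule. Its mean was 60.9 ± 7.78 CPM (SD, n = 8) for labelled upper and 54.3 ± 3.01 CPM for labelled lower, and it was not called (adjusted p = 0.0524 by the quasi-likelihood, QL, test of edgeR, Benjamini-Hochberg adjusted).

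Levels between genes were compared as CPM per kilobase of annotated exon, merged over the transcripts of a gene, over all 16 libraries. The annotation used for counting is not given, so the order depends on the exon lengths taken here. Without division by length Foxp1 was highest, at 154.6 CPM over 13.8 kb, while Foxi3 had 48.3 CPM over 1.28 kb. Foxf2, a mesenchymal factor needed for closure of the palate, stood first at 38.7 CPM per kb, and Foxi3 second at 37.7. Foxp4 (27.7), Foxk2 (25.2), Foxm1 (22.2) and Foxo4 (21.5) followed. The next group held Foxk1 (13.7), Foxo1 (13.1) and Foxp1 (11.2). Among the members with a restricted role, Foxd2 measured 5.75 CPM per kb, Foxc2 1.56, Foxq1 1.30, Foxl1 1.08, Foxc1 0.966 and Foxn1 0.932. Foxa3 (0.285), Foxa2 (0.138), Foxp3 (0.083) and Foxl2 (0.036) were the lowest of the 31 genes tested. The first 2 changed places between the labels, with Foxf2 at 33.8 and Foxi3 at 30.8 CPM per kb in labelled upper and 43.6 and 44.6 in labelled lower.

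**Figure D1:**
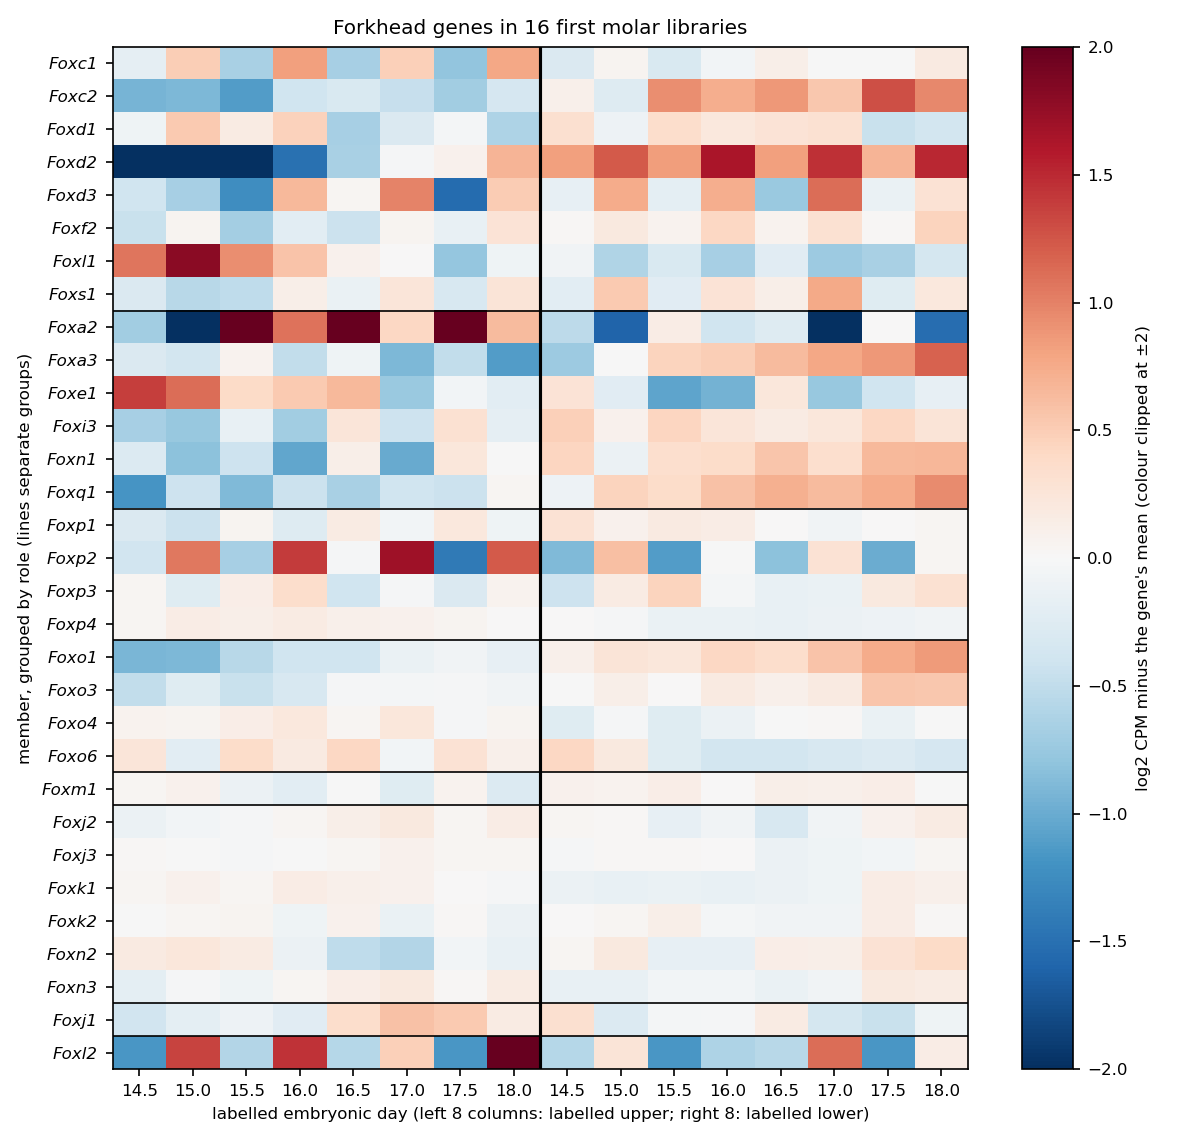
Log2 CPM of the 31 forkhead genes that passed the filter, minus each gene's mean over the 16 libraries, with labelled upper libraries in the left 8 columns and labelled lower in the right 8, each in order of labelled embryonic day. Foxd2 is lowest in the early labelled upper libraries, Foxo1 and Foxq1 are higher in labelled lower, and Foxp2 alternates between neighbouring columns.

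The labelled teeth differed in 16 of the 31 members, where 36.2% of all genes tested were called. A gene is called here where the QL test of edgeR, adjusted over all 16287 genes by Benjamini-Hochberg, gave a p under 0.05. Of the 16, 10 were higher in labelled lower (18.1% of all genes were) and 6 the other way (also 18.1%). Folds of at least 2 were reached by 4 members, Foxa2, Foxd2, Foxc2 and Foxq1 (5.91% of all genes). Foxa2 passed the filter on low counts through labelled upper libraries alone. The median absolute log2 difference was 0.33 over the members and 0.14 over all genes. The direction was the same in 8 of 8 individuals for 9 of the 16, in 7 of 8 for 4, and in at most 6 for 3 (Foxa2, Foxe1 and Foxo6). The CPM of the labelled groups did not overlap for 3 members, Foxc2, Foxo1 and Foxo3 (6.4% of all genes). Without individuals 1 and 2, 14 members were called, 5 of them higher under the upper label and 9 under the lower. The calls of Foxe1 and Foxi3 then ended. Within the first 4 stages, which share a lane in each label, 13 members were called: Foxa2, Foxa3, Foxf2, Foxm1 and Foxo6 lost the call, and Foxk1 and Foxp1 gained one. Within the last 4 stages 11 were called: Foxe1, Foxf2, Foxi3, Foxl1, Foxm1, Foxn1 and Foxo4 lost the call, and Foxj1 and Foxn2 gained one.

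**Figure D2:**
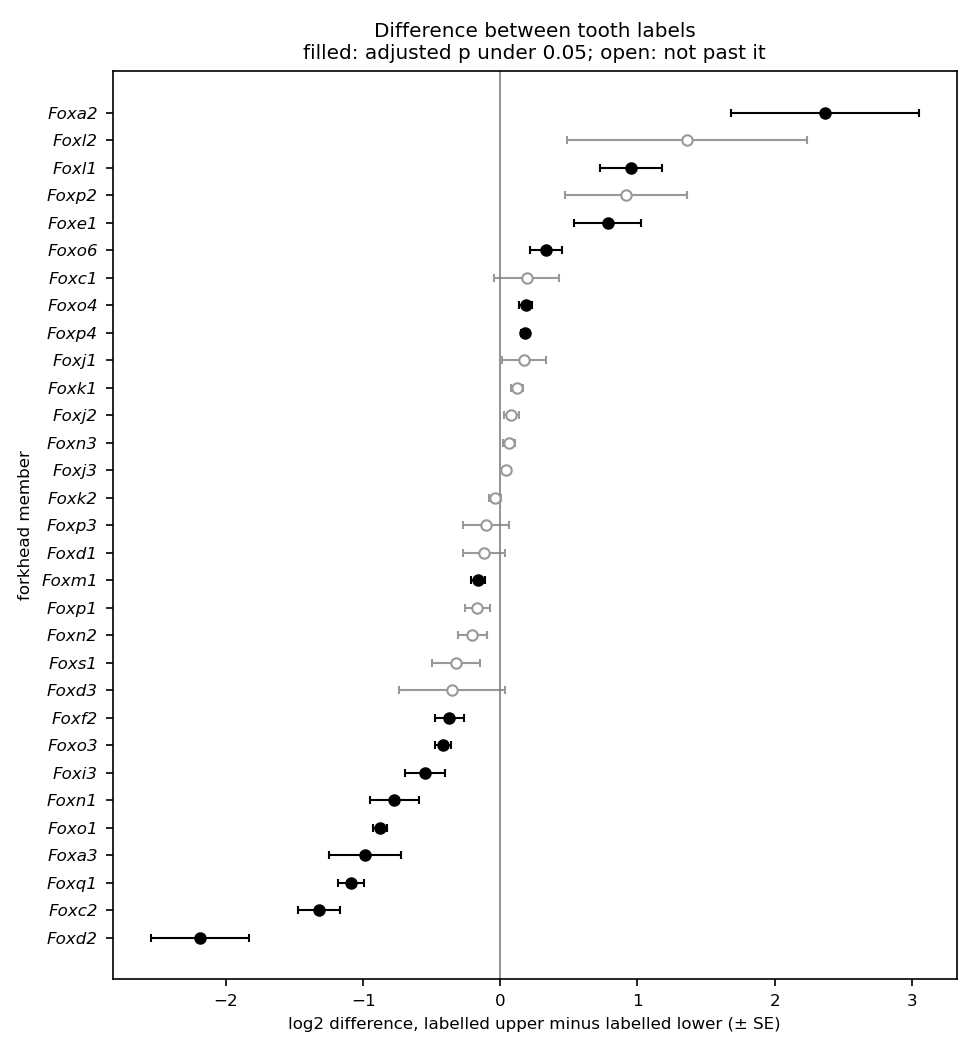
Log2 difference between labelled upper and labelled lower libraries for 31 forkhead genes, with bars of 1 SE; positive values are higher in labelled upper. Filled points passed the adjusted p of 0.05 (16 genes), from Foxd2 at -2.19 to Foxa2 at 2.37. Foxa2 passed the filter on low counts through labelled upper libraries alone.

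Among the mesenchymal and neural crest factors, 3 of 8 tested members had higher levels under the lower label (Foxc2, Foxd2 and Foxf2) and 1 under the upper (Foxl1), where 18.1% of all genes were called in each direction. Of 10 dental mesenchyme markers 6 were called higher under the upper label and 1 under the lower, and their part in these differences was not tested. Foxd2 (chromosome 4, 114906282 to 114908873), a factor of cranial neural crest mesenchyme, measured 1.15, 2.32, 1.97, 3.58, 6.5, 10.1, 10.9 and 16.4 CPM from ED14.5 to ED18.0 in labelled upper. In labelled lower it measured 18.4, 24.2, 18.4, 32.0, 18.3, 28.6, 16.2 and 29.4 CPM at the same stages. It was lower in labelled upper in 8 of 8 individuals, and only the last labelled upper library reached the lowest labelled lower values. The log2 difference was -2.19 ± 0.36 (SE, adjusted p = 0.000318 by edgeR's QL test). Within the first 4 stages it was -3.40 and within the last 4 -1.13, and both passed the same test.

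Foxc2 (chromosome 8, 121116171 to 121118895), needed in lymphatic vessels and in neural crest mesenchyme, measured 1.91, 1.96, 1.66, 2.77, 2.97, 2.67, 2.27 and 2.90 CPM in labelled upper. In labelled lower it measured 3.98, 3.07, 7.09, 6.17, 6.82, 5.44, 8.95 and 7.27 CPM. Every labelled lower library lay above every labelled upper one. The log2 difference was -1.32 ± 0.15 (adjusted p = 2.05e-05, edgeR's QL test), and it stayed past the threshold in 17 of 17 alternatives. Endothelium markers (10 of 10 measured) summed to 420.4 to 494.4 CPM over labelled upper and 450.0 to 508.7 CPM over labelled lower libraries. Of the 10, 4 were called higher in the latter and 1 in the former, against 18.1% of all genes in each direction. Their part in the Foxc2 difference was not tested.

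Foxf2 had a mean of 79.8 ± 17.4 CPM (SD, n = 8) for labelled upper and 102.9 ± 13.0 CPM for labelled lower. Its log2 difference of -0.37 ± 0.11 had its sign in 8 of 8 individuals. Foxl1, a Hedgehog-responsive factor of gut mesenchyme, went the other way, with 3.97 ± 2.38 against 1.85 ± 0.33 CPM and a log2 difference of 0.95 ± 0.23. Its excess lay in the early stages: labelled upper measured 3.74 to 8.90 CPM through ED16.0 and 1.44 to 2.67 CPM after it, while labelled lower stayed at 1.51 to 2.42 CPM. Within the last 4 stages the Foxl1 difference was 0.33 and was not called (adjusted p = 0.353, edgeR's QL test, against 0.000269 to 0.353 over its alternatives). Foxc1, Foxd1, Foxd3, a neural crest specifier, and Foxs1, found in pericytes, were not called, with log2 differences of 0.19, -0.12, -0.35 and -0.32. Mural cell markers (8 of 8 measured), which include those of pericytes, summed to 537.4 to 719.1 and 571.4 to 719.4 CPM in the labels. Of the 8, 4 (Rgs5, Kcnj8, Abcc9 and Acta2) were called higher under the lower label and 1 (Notch3) under the upper, against 18.1% of all genes each way.

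Neighbouring members differed in direction in 1 cluster and shared it in part in another. On chromosome 8, Foxc2 and Foxl1 (121127940 to 121130644) lie 9.05 kb apart, and Foxc2 was higher in labelled lower while Foxl1 was higher in labelled upper. On chromosome 13, Foxq1 (31556134 to 31560976), Foxf2 (31625816 to 31631403) and Foxc1 (31806633 to 31812476) lie in this order, 64.8 kb and 175.2 kb apart. Foxq1 and Foxf2 were higher in labelled lower, and Foxc1 was not called. Foxe3, at 0 counts, lies 16.3 kb from Foxd2. Coordinates are those of GENCODE M21 on GRCm38, and differences between neighbours were not tested.

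The epithelial and endodermal group has 13 members, of which 6 passed the filter on low counts. All 6 were called, 4 of them higher under the lower label (Foxa3, Foxi3, Foxn1 and Foxq1) and 2 under the upper (Foxa2 and Foxe1). Foxa2 passed that filter through labelled upper libraries alone, and limma voom did not call it. Of all genes, 36.2% were called, 18.1% in each direction. Foxq1, needed for the structure of the hair shaft, measured 2.50, 4.31, 3.06, 4.20, 3.61, 4.35, 4.24 and 5.88 CPM in labelled upper. In labelled lower it measured 5.40, 7.88, 7.41, 8.72, 9.49, 8.97, 9.50 and 11.1 CPM. It was higher in labelled lower in 8 of 8 individuals, and the groups met only where the last labelled upper library passed the first labelled lower one. This was a log2 difference of -1.09 ± 0.10 (adjusted p = 1.88e-06, edgeR's QL test). Foxq1 overlaps the antisense gene A530084C06Rik, and the library kit does not mark strand.

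Foxi3 spanned 27.7 to 57.5 CPM over the labelled upper libraries (median 38.0) and 49.6 to 65.5 CPM over the labelled lower ones (median 55.6), a log2 difference of -0.55 ± 0.14. Its difference was carried by the early stages, as it was -0.25 within the last 4 stages and then not called (adjusted p = 0.298, edgeR's QL test, against 0.000612 to 0.298 over its alternatives). Foxn1, the nude mouse gene of thymus and hair epithelium, averaged 2.22 ± 0.76 and 3.77 ± 0.60 CPM and differed by -0.77 ± 0.18, with the sign of the difference in 8 of 8 individuals. Foxe1, a gene of thyroid and palate development, averaged 3.38 ± 1.62 and 1.89 ± 0.67 CPM and differed by 0.78 ± 0.25. The Foxe1 call rested on the early individuals: it ended without any 1 of individuals 1 to 4, with adjusted p between 0.063 and 0.0805 in edgeR's QL test.

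Foxa2 and Foxa3, textbook factors of endoderm, were detected at low levels. Foxa2 (chromosome 2, 148042877 to 148046969) measured 0.0882, 0, 1.43, 0.434, 0.890, 0.252, 1.03 and 0.302 CPM in labelled upper, and over the labelled lower libraries 0.107, 0.0224, 0.202, 0.122, 0.139, 0, 0.175 and 0.0264 CPM. The 161 counts of the labelled upper libraries (exact 95% Poisson interval 137.1 to 187.9, counting error only) compare with 31 (21.1 to 44.0) over the labelled lower ones. Labelled lower was the higher at the first 2 stages, and from ED15.5 every labelled upper library lay above all 8 labelled lower ones. The log2 difference was 2.37 ± 0.68 (adjusted p = 0.0147, edgeR's QL test), and it did not pass with limma voom (adjusted p = 0.0664), against 0.00182 to 0.183 over its alternatives. No labelled lower library reached the 0.269 CPM of the filter, which Foxa2 passed through labelled upper libraries alone. Foxa3 (chromosome 7, 19013284 to 19023538) measured 0.412, 0.392, 0.544, 0.353, 0.486, 0.252, 0.354 and 0.211 CPM in labelled upper. In labelled lower it measured 0.295, 0.516, 0.731, 0.753, 0.835, 0.936, 0.975 and 1.24 CPM. Labelled lower was higher in 7 of 8 individuals, and the gap opened with stage. The log2 difference was -0.99 ± 0.26 (adjusted p = 0.00886, the same test), but -0.38 and not called within the first 4 stages.

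Markers of nasal and respiratory epithelium, which could carry Foxa genes into a dissected germ, were measured beside these values. Their sum was 79.4 to 116.7 CPM over labelled upper and 56.3 to 115.7 CPM over labelled lower libraries, most of it from keratin genes that other epithelia share. Scgb1a1 and Muc5b did not pass the filter, Krt8 was higher in labelled upper (log2 difference 0.79 ± 0.10), and Cftr (-1.03 ± 0.27) and Bpifa1 (-3.25 ± 1.01) were higher in labelled lower. Bpifa1 was near the floor, with means of 0.0245 ± 0.0694 and 0.301 ± 0.504 CPM (SD). It reached at most 0.196 CPM in labelled upper and passed the filter through labelled lower libraries alone. Oral cornifying epithelium markers (6 of 6 measured) summed to 97.1 to 510.9 CPM and 191.4 to 1549 CPM, with 4 of 6 higher in labelled lower (18.1% of all genes). The part of these tissues in the epithelial group was not tested.

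Foxo genes were divided by direction, with Foxo1 and Foxo3 higher in labelled lower and Foxo4 and Foxo6 in labelled upper. Foxo1 (chromosome 3, 52268336 to 52353221) measured 56.6, 57.6, 72.6, 80.7, 80.3, 97.8, 101.9 and 95.8 CPM in labelled upper, and over the labelled lower libraries 115.9, 127.5, 125.9, 143.2, 136.3, 159.6, 176.0 and 193.6 CPM. The earliest labelled lower library lay above the highest labelled upper one. The log2 difference was -0.88 ± 0.05 (adjusted p = 7.92e-08, edgeR's QL test), a ratio of the means of 1.83. Foxo3 averaged 30.2 ± 4.04 and 40.6 ± 6.26 CPM (-0.42 ± 0.06), also without overlap. Foxo4 averaged 79.7 ± 4.78 and 70.4 ± 5.0 CPM, and its smaller log2 difference of 0.19 ± 0.05 had its sign in 8 of 8 individuals. Within the last 4 stages it was 0.11 and not called (adjusted p = 0.281 in edgeR's QL test, against 0.00183 to 0.281 over its alternatives). Foxo6 (10.5 ± 1.48 and 8.5 ± 1.98 CPM, 0.33 ± 0.12) lost its call without any 1 of individuals 3 to 8 (adjusted p between 0.0722 and 0.12 in the same test) and with the individual as a block (0.0743, against 0.00192 to 0.557 over its alternatives).

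The Foxo pathway list of receptors, kinases and targets had 6 of 20 genes higher under the upper label and 3 under the lower, against 18.1% of all genes in each direction. Pik3r1, the regulatory subunit of phosphoinositide 3-kinase, differed by -0.92 ± 0.06 on the log2 scale and Bcl6, a repressor induced by Foxo proteins, by 0.46 ± 0.16. Irs1, an adaptor of the insulin receptor, differed by 0.23 ± 0.05.

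Of the Foxp genes, transcriptional repressors, 1 of 4 was called, against 36.2% of all genes. Foxp4, expressed in developing lung epithelium, averaged 144.5 ± 5.50 and 128.1 ± 5.22 CPM, a log2 difference of 0.18 ± 0.03 with its sign in 8 of 8 individuals. Foxp1 (145.6 ± 22.5 and 163.7 ± 14.2 CPM) and Foxp3 (0.364 ± 0.072 and 0.395 ± 0.085 CPM) were not called. Of 6 T cell markers, Cd3e, Cd3g, Il2ra and Cd8a did not pass the filter, and the list summed to 5.12 to 10.6 CPM over the 16 libraries. Most of this sum was Lck, with means of 7.55 and 5.51 CPM in the labels. Lck was called higher in labelled upper (0.47 ± 0.07), and Cd4 was not called. Foxp3 overlaps Ccdc22 and Ppp1r3f on the other strand, and reads from these genes cannot be told apart without strand.

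Foxm1 had a mean of 120.7 ± 12.4 CPM for labelled upper and 135.3 ± 4.73 CPM for labelled lower. They differed by -0.16 ± 0.05 on the log2 scale. Its call ended without any 1 of individuals 3, 4 and 6 (adjusted p between 0.0509 and 0.0704, edgeR's QL test). Of 19 mitotic genes known as Foxm1 targets, 4 were higher under the lower label and 0 under the upper (0 also at an unadjusted p under 0.05, with DESeq2 and with limma voom). Of all genes, 18.1% were called in each direction. The 4 were Nek2 (-0.25 ± 0.07) and Plk1 (-0.24 ± 0.08), mitotic kinases, and Cenpf (-0.20 ± 0.05) and Cenpe (-0.19 ± 0.06), kinetochore proteins.

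The broadly expressed Foxj2, Foxj3, Foxk1, Foxk2, Foxn2 and Foxn3 included 0 of 6 called genes with edgeR's QL test, DESeq2 and limma voom, and 1 at an unadjusted p under 0.05 (Foxk1). With edgeR's test 36.2% of all genes were called. Their log2 differences ran from -0.20 for Foxn2 to 0.12 for Foxk1 (adjusted p = 0.056 in edgeR's test). Foxj1, the master factor of motile cilia, averaged 3.04 ± 0.79 and 2.65 ± 0.51 CPM and was not called (0.18 ± 0.16). The motile cilia list had 2 of 10 tested genes higher in labelled upper, the tektins Tekt1 (0.62 ± 0.15) and Tekt2 (0.61 ± 0.09), and 1 in labelled lower, the radial spoke gene Rsph1 (-0.77 ± 0.19). The share of all genes was 18.1% in each direction.

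Of the pathways upstream of the mesenchymal and epithelial members, Hedgehog genes had 7 of 12 higher under the upper label and 4 under the lower. Each direction held 18.1% of all genes. Shh, the ligand, differed by -2.11 ± 0.20 and Hhip, a binding protein and target, by -1.42 ± 0.14, while the co-receptor Boc differed by 0.74 ± 0.10 and the transcription factor Gli3 by 0.65 ± 0.09. The Eda and activin list had 4 of 10 higher under the upper label and 2 under the lower, against the same 18.1%. Edar, the ectodysplasin receptor, and its adaptor Edaradd differed by -0.59 ± 0.20 and -0.96 ± 0.11, while Inhba, a subunit of activin, differed by 0.45 ± 0.10 and the receptor Eda2r by 0.32 ± 0.12. The median log2 difference was 0.17 over the Hedgehog list, 0.06 over the Eda and activin list and 0.01 over all genes.

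**Figure D3:**
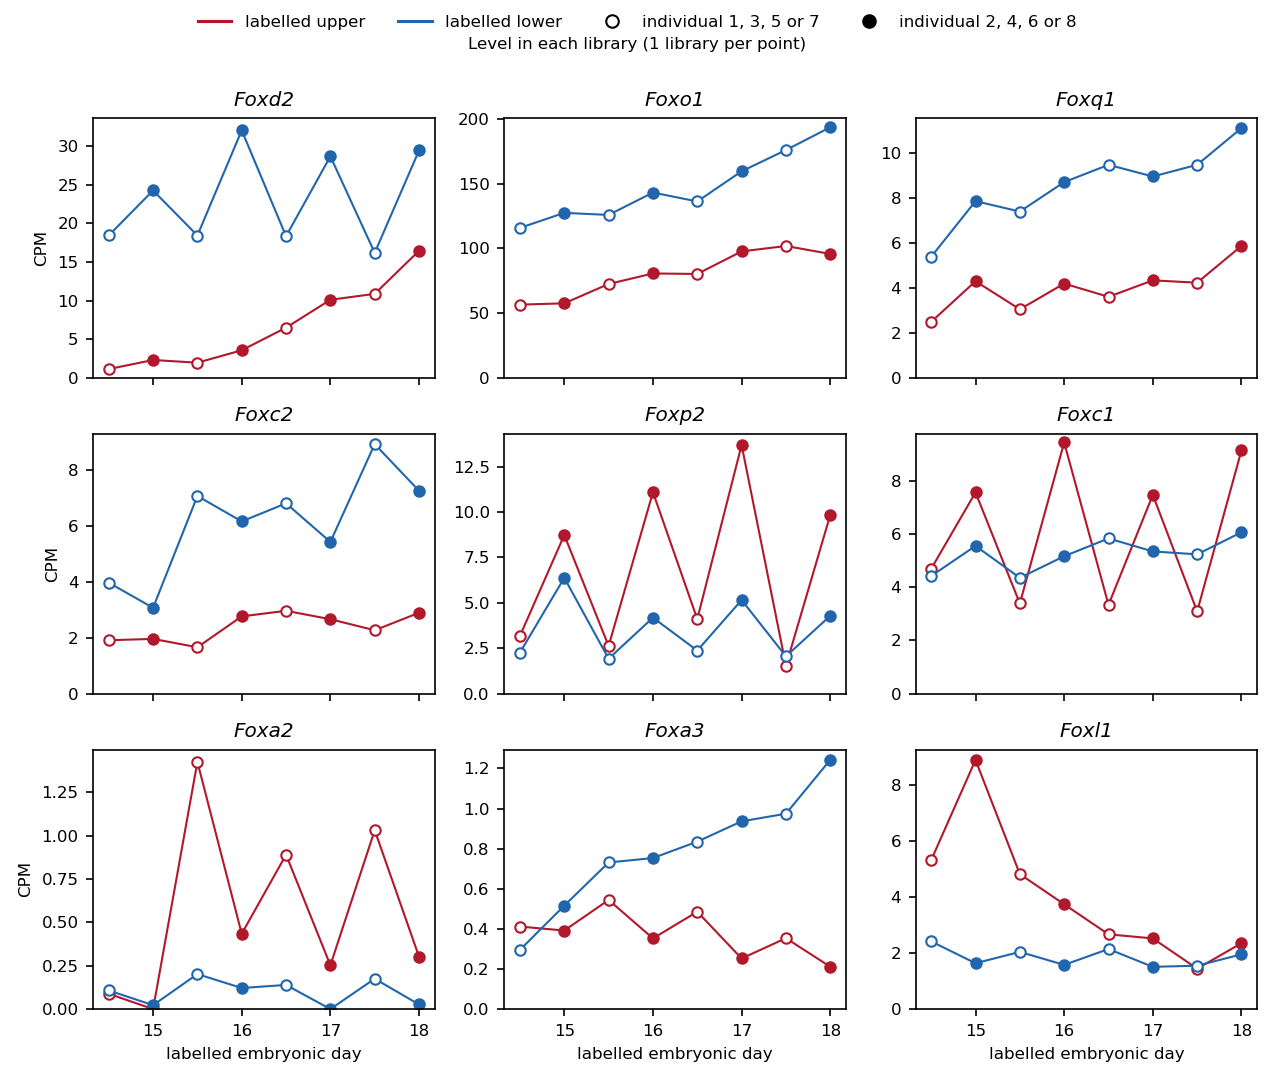
CPM of 9 forkhead genes in each library against labelled embryonic day, red for labelled upper and blue for labelled lower, with filled points for individuals 2, 4, 6 and 8 and open points for 1, 3, 5 and 7. Foxd2 climbs from 1.15 to 16.4 CPM in labelled upper, Foxo1 runs upward in both labels, and Foxp2 alternates in both.

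With labelled stage, 4 of 31 members changed in labelled upper (6.15% of all genes) and 4 in labelled lower (4.11%). In labelled upper Foxd2 and Foxo1 rose and Foxe1 and Foxl1 fell (3.73% and 2.42% of all genes). In labelled lower Foxo1, Foxo3, Foxq1 and Foxa3 rose (2.63%), and 0 members fell (1.49%) in edgeR's QL test, with 2 at an unadjusted p under 0.05, 2 with DESeq2 and 0 with limma voom. Foxo1 was the 1 member called in both labels (0.657%). Without individuals 1 and 2 the counts were 1 (Foxd2) and 0, the latter with 9 members at an unadjusted p under 0.05. With the lane as a term they were 0 and 0, with 5 and 7 at an unadjusted p under 0.05, and 2 and 19 of all genes were then called.

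Foxo1 rose by 0.25 ± 0.03 log2 per embryonic day in labelled upper and by 0.21 ± 0.02 in labelled lower (adjusted p = 0.00531 and 0.00587, edgeR's QL test). The last library stood 1.69-fold above the first in labelled upper and 1.67-fold in labelled lower. Both calls held without any 1 individual (largest adjusted p 0.0393 and 0.0431 in that test). The slopes were 0.27 and 0.26 with the lane as a term, where neither passed (adjusted p = 0.279 and 0.0643, against up to 0.279 and 0.0864 over the alternatives). Foxo3 rose by 0.16 ± 0.03 in labelled lower, and in labelled upper its slope of 0.13 ± 0.03 did not pass (adjusted p = 0.0551, edgeR's QL test). Pik3r1 rose as well, by 0.18 ± 0.04 and 0.21 ± 0.03.

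Foxd2 rose by 1.08 ± 0.08 log2 per day in labelled upper (adjusted p = 0.000492, edgeR's QL test), the steepest called slope of the family. Its last labelled upper library was 14.3-fold above its first. In labelled lower its slope was 0.08 ± 0.10 (adjusted p = 0.671). With the lane as a term the labelled upper slope was 0.86 and did not pass (adjusted p = 0.157, the largest over its alternatives, and the smallest 8.17e-33). Foxl1 fell by 0.60 ± 0.12 per day and Foxe1 by 0.48 ± 0.10 in labelled upper. The Foxe1 slope lost its call without any 1 of individuals 1, 2 and 8, with adjusted p from 0.0804 to 0.171 in edgeR's QL test. In labelled lower the slopes of Foxl1 and Foxe1 were -0.08 ± 0.08 and -0.07 ± 0.14. Skeletal muscle markers rose in labelled upper at 6 of 8 genes and oral cornifying markers at 4 of 6 (3.73% of all genes), and their part in the slopes was not tested.

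In labelled lower Foxa3 rose by 0.46 ± 0.10 and Foxq1 by 0.23 ± 0.05 log2 per day. These and the Foxo3 slope each lost the call without any 1 of 6 of the 8 individuals, with adjusted p up to 0.152, 0.157 and 0.175 in edgeR's QL test. Only Foxo1 remained called there when individual 1, 4, 7 or 8 was left out. The stage slopes of Foxm1 were not called (-0.06 ± 0.04 and -0.01 ± 0.02), while 9 of its 19 listed targets fell in labelled upper (2.42% of all genes). They were led by Ccnb2, a mitotic cyclin (-0.21 ± 0.03), and Cdc25c, a mitotic phosphatase (-0.20 ± 0.04). None of the 19 passed in labelled lower with edgeR, DESeq2 or limma voom, and 3 fell at an unadjusted p under 0.05.

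**Figure D4:**
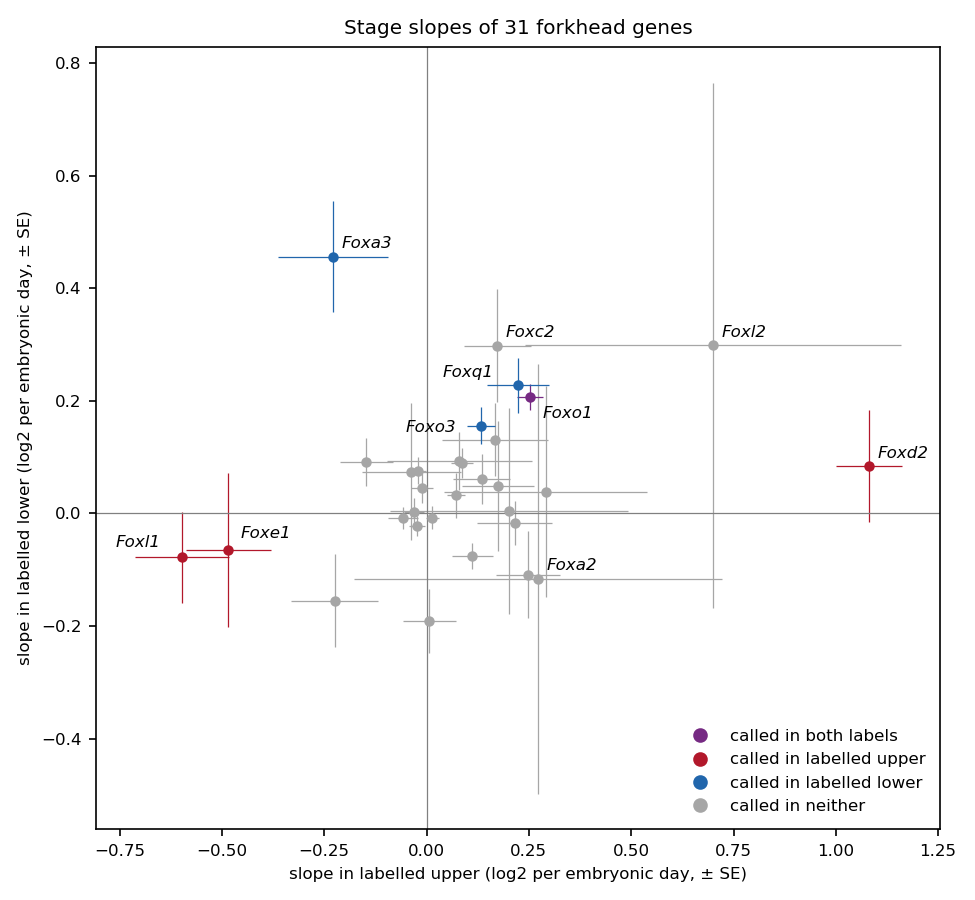
Linear slope per embryonic day of 31 forkhead genes in labelled upper (horizontal) and labelled lower (vertical), in log2 units with bars of 1 SE, coloured by where the slope was called. Foxd2 lies far to the right at 1.08 with a lower slope near 0, Foxa3 lies at the upper left, and Foxo1 is the 1 gene called in both labels.

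The slopes of the labelled teeth differed from each other for 2 members, against 1.28% of all genes. For Foxd2 the labelled upper slope was the higher by 1.0 ± 0.15 log2 per day (adjusted p = 0.00886, edgeR's QL test), as was found for 0.682% of genes. For Foxa3 it was the lower by the difference of -0.71 ± 0.14 (adjusted p = 0.0302), as for 0.602%, with labelled upper at -0.23 ± 0.13 and labelled lower at 0.46 ± 0.10. The Foxd2 levels drew together with stage, whereas those of Foxa3 drew apart. The Foxd2 call ended without individual 1 (adjusted p = 0.0795, against 1.4e-08 to 0.251 over its alternatives) and the Foxa3 call without any 1 of 6 individuals (up to 0.233, both by the same test). Without individuals 1 and 2, 0 members were called by this test, with 6 at an unadjusted p under 0.05, and 0 of all genes were called. The difference for Foxl1 (-0.51 ± 0.14, adjusted p = 0.106 in edgeR's test) passed with DESeq2 alone (adjusted p = 0.0317, against 0.0317 to 0.539 over its alternatives).

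Levels also alternated by individual number inside the labels, along with Pou3f3. This split was prompted by the data, so its values carry no test. Foxp2 (chromosome 6, 14901349 to 15441977), a repressor known from speech circuits, measured 3.18, 8.73, 2.62, 11.1, 4.10, 13.7, 1.53 and 9.84 CPM in labelled upper for individuals 1 to 8. In labelled lower it measured 2.26, 6.37, 1.92, 4.18, 2.37, 5.15, 2.05 and 4.28 CPM. Individuals 2, 4, 6 and 8 were above the other 4 without overlap in both labels, 3.79-fold and 2.33-fold by their means. Foxp2 was the 1 member of 31 to do so, against 2.33% of all genes in either order and 1.8% in this one. Its labelled tooth difference was 0.92 ± 0.44 and not called (adjusted p = 0.121, edgeR's QL test), but 0.77 and called where the individual entered as a block (0.00911 by the same test, against an adjusted p of 0.00911 to 0.337 over its alternatives).

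Other members were separated by individual number in 1 label only. In labelled upper 4 of 31 members showed no overlap between these individuals (9.55% of all genes): Foxc1, Foxl2 and Foxp2 higher in individuals 2, 4, 6 and 8, and Foxo6 lower. In labelled lower 5 did (7.51%): Foxd2, Foxd3, Foxf2, Foxp2 and Foxs1, all higher in them. Foxl2 passed the filter on low counts only through labelled upper individuals 4 and 8 (0.271 and 0.754 CPM). Its separation in labelled upper was therefore partly set by the filter. Foxc1 alternated in labelled upper, at 3.09 to 4.70 and 7.49 to 9.47 CPM, but not in labelled lower, at 4.36 to 5.85 and 5.18 to 6.08 CPM. Foxd2 in labelled lower measured 16.2 to 18.4 and 24.2 to 32.0 CPM, and Foxf2 89.0 to 94.6 and 102.7 to 121.4 CPM. Foxd3 measured 0.501 to 0.779 and 1.08 to 1.98 CPM there. All 7 steps between neighbouring stages alternated for 11 members in labelled upper, Foxl2 among them (22.6% of all genes), and for 7 in labelled lower (19.5%). They did so in both labels for Foxp2 and Foxf2, and in the opposite sense for Foxa2 (7.26%). In labelled lower Foxa2 had 0 to 8 counts in a library, with 5 each in individuals 4 and 5, so its steps there rest on few reads. Other mesenchymal members went the other way in labelled lower only, where the means of individuals 2, 4, 6 and 8 over the others were 0.818 for Foxc2, 0.820 for Foxl1 and 0.917 for Foxd1. In labelled upper the ratios of these 3 genes were 1.17, 1.23 and 1.17. Among the epithelial members these ratios were 0.719 and 0.891 for Foxi3, 0.659 and 0.902 for Foxn1, 0.782 and 0.789 for Foxe1, and 0.288 and 0.273 for Foxa2 (labelled upper, then labelled lower). They were above 1 for Foxq1, at 1.40 and 1.15, and on both sides of it for Foxa3, at 0.673 and 1.22.

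Marker sums of the tooth tissues moved with the same individuals. For dental mesenchyme the labelled upper sums of individuals 1, 3, 5 and 7 were 1931 to 2133 CPM and those of the other 4 were 2406 to 2565 CPM. The labelled lower sums were 1258 to 1708 and 1765 to 2230 CPM. Dental epithelium markers ran the other way, at 5148 to 6288 and 3907 to 4838 CPM in labelled upper and 4775 to 5529 and 4155 to 4414 CPM in labelled lower. The largest parts of these sums were the keratins Krt5 (means 1940 and 2045 CPM in the labels) and Krt17 (1430 and 1073 CPM). The mesenchyme ratio was 1.24 and 1.38 and the epithelium ratio 0.758 and 0.828, against 3.79 and 2.33 for Foxp2 and 13.6 and 14.1 for Pou3f3. The part of tissue makeup in the alternation was not tested.

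**Figure D5:**
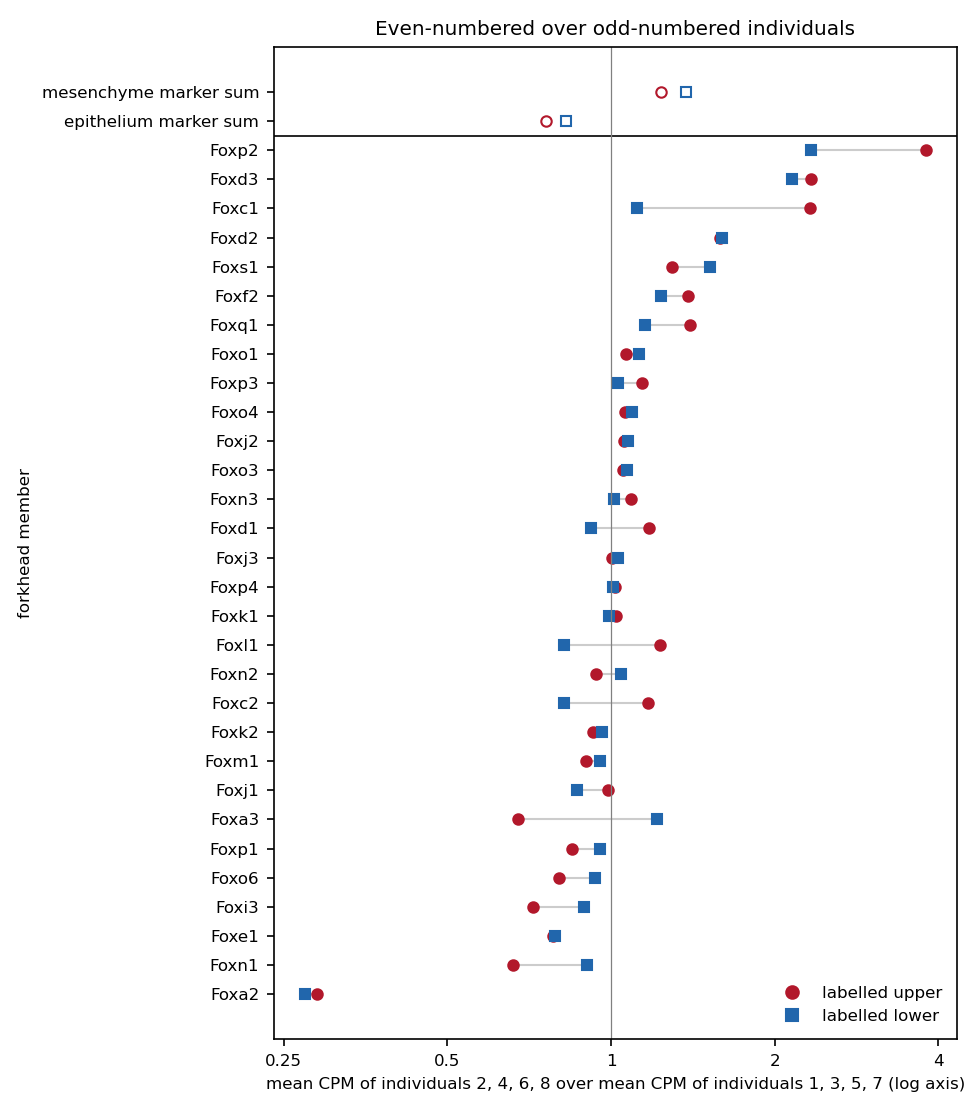
Mean CPM of individuals 2, 4, 6 and 8 over that of individuals 1, 3, 5 and 7, on a log axis, for 30 forkhead genes and, in open symbols, the summed dental mesenchyme and epithelium markers; circles are labelled upper and squares labelled lower. Foxp2 and Foxd3 lie above 2 in both labels and Foxa2 near 0.28; Foxl2 is left out because individuals 1, 3, 5 and 7 had almost no counts of it.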

How the data were processed

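Poly(A) RNA libraries (TruSeq V2, which does not mark strand, 100 bp read pairs) gave 1 deposited table of whole-number read counts per gene and library, which the authors had not normalized. The tools named are TopHat2 2.0.6, Bowtie2 2.0.2 and HTSeq 0.5.3p9, with build mm10, per the submitters' processing notes. Annotation and strand setting: not given in the sources used here. Each table ends in 5 summary lines (reads in no feature were 11.8% to 14.1%, ambiguous reads 0.896% to 1.07%), which stayed out of library sizes and tests. CPM used library gene totals.

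Genes were tested where at least 2 libraries reached 0.269 CPM (10 counts at the median depth), with edgeR 4.0.16 in R 4.3.3: TMM scaling, the quasi-likelihood (QL) test and p-values adjusted by Benjamini-Hochberg, with a threshold of 0.05. The labelled tooth difference was fitted with a natural spline of stage (3 degrees of freedom) in 16 libraries. Stage slopes were linear in the 8 libraries of a label, and the slope difference added a tooth by stage term. SE is the log2 value divided by the square root of F. Alternatives were RLE scaling, no filter, DESeq2 1.42.0, limma 3.58.1 voom, leaving out each individual, the individual as a block, linear stage, the first and last 4 stages alone, and the lane as a term; the fit without individuals 1 and 2 was added after seeing the data. Scripts were tested on simulated data.

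The members and gene lists were chosen with earlier results of these data known. Members past the tooth test with a log2 difference of at least 1, past both stage tests or the slope test, or alternating in both labels are given library by library. The labels pair the teeth by individual, and deviations of same-numbered libraries from their stage lines correlated at 0.074 to 0.302 across genes. Whether separate litters were used is not given, and p-values measure scatter about a smooth curve between individuals. Exon lengths and coordinates are from GENCODE M21 (GRCm38), promoters from RefSeq (GRCm38). No 2 libraries were identical. Results of 1 member and of some listed genes are not reported here.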

Additional observations from a re-analysis of the deposited data

Results flagged for a closer look

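Foxl2 had 1 high library in each label. Labelled upper individual 8 had 0.754 CPM, with the next labelled upper value at 0.271 CPM and a mean of 0.0983 ± 0.118 CPM (SD, n = 7) without it. Labelled lower individual 6 had 0.208 CPM, with the next at 0.0898 CPM and a mean of 0.0354 ± 0.0357 CPM without it. Each value was picked for its gap to the other 7 libraries, relative to their range. Foxl2 had 50 and 18 counts in all in the labels and overlaps the antisense gene Foxl2os. Of 62 groups of 8 libraries checked, these 2 were found. Chance gives about 1 in 20, so 2 of 62 is no more than chance would give.

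The stage slopes of 2 genes differed between the labelled teeth by a test of the difference itself (edgeR's QL test, Benjamini-Hochberg adjusted). Foxd2 had the higher slope in labelled upper, by 1.0 log2 per day (adjusted p = 0.00886). Foxa3 had the lower slope in labelled upper, with a difference of -0.71 log2 per day (adjusted p = 0.0302). The direction of both was kept in 14 of 14 alternatives, and the calls in 12 and 7.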

How the results depend on the processing

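The 16 members called for the labelled tooth difference became 11 to 17 under the other settings, and 242 of 272 gene values kept their direction and call, with 30 losing the call and 0 reversed. With the individual as a block 16 were called: Foxp2 gained its call and Foxo6 lost it (0.32, adjusted p = 0.0743), the slope difference kept 2, and the block changed no other call. Calls with stage were less stable. DESeq2's Wald test gave 8 members in labelled upper, 9 in labelled lower and 4 for the slope difference, against 4, 4 and 2. The lane as a term left 0 in either label. Without individuals 1 and 2, 1, 0 and 0 were called. Leaving out 1 individual gave 1 to 4 in labelled lower, 0 to 2 for the slope difference and 1 to 3 for the alternation, where Foxa2, Foxd3, Foxf2, Foxl2 and Foxs1 joined Foxp2. Of these, Foxl2 passed the filter only through labelled upper individuals 4 and 8, and Foxa2 through labelled upper libraries alone. Over all genes the calls went from 1002 to 2049 (DESeq2) and 192 to 1401 (leaving out 1) in labelled upper, from 670 to 1801 and 34 to 758 in labelled lower, and from 209 to 595 and 14 to 136 for the slope difference, which gave 475 with the block. Without individuals 1 and 2 they were 18, 1 and 0. The tooth difference had 3144 calls within the last 4 stages, against 5902. Signs reversed for Foxj1 (-0.23) and Foxn2 (0.14) within the first 4 stages, for Foxp1 (0.069) within the last 4, and for the Foxj1 slope in labelled upper with the lane (-0.0073), values that were not called. In the other 4 stages Foxj1 (0.58), Foxn2 (-0.55) and Foxp1 (-0.40) were called. The cause was not tested, though fewer libraries enter several of these fits. Depth limits the low genes, as 10 counts correspond to 0.269 CPM.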
